A study of Drosophila melanogaster with 5 samples.

Results

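The Dpr, DIP, Beat and Side genes encode cell-surface proteins of the immunoglobulin superfamily that guide axons and help neurons choose synaptic partners. Their chromatin was compared between dopamine neurons and GABA neurons of the adult *Drosophila* head. Members were taken by gene name: a region belonged to the set when the symbol of its nearest gene was *dpr* with a number, began with *DIP-* or *beat-*, was *side*, or began with *side-*. This gave 508 of the 80590 regions tabulated for the series, assigned to 53 of 14273 genes: 231 regions of 20 Dpr genes, 63 regions of 11 DIP genes, 103 regions of 14 Beat genes and 111 regions of 8 Side genes. Of the 54 RefSeq genes whose names meet the rule, *dpr7* was not analysed here. A member gene had between 1 and 53 regions, with a median of 6.

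The study prepared ATAC-seq libraries, in which the transposase Tn5 cuts and tags open chromatin, from GFP-labelled nuclei sorted by flow cytometry out of frozen adult heads. The 2 dopamine libraries came from *TH-Gal4* flies, in which Gal4 is driven from the gene for tyrosine hydroxylase. The 3 GABA libraries came from *vGAT-Gal4* flies, whose driver follows the vesicular GABA transporter. Both drivers switched on a *UAS* transgene for nuclear GFP, flies were grown on cornmeal agar at 25 °C, and age and sex were not given in the sources used here. Each driver labels many subtypes of neuron as 1 pool, so a lower value can mean that fewer nuclei had a region open or that the region was less open in each nucleus, and these cannot be told apart. The labels do not say whether libraries of a group came from separate flies, so the p-values below measure the spread between libraries, which may be technical.

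Dpr proteins bind DIP proteins on neighbouring cells in partner-specific pairs, which were described at many synapses of the visual system and the neuromuscular junction. Beat proteins are receptors, or in some cases secreted factors, that recognise Side ligands. *beat-Ia* and *side*, the founding members, are known for steering motor axons in the embryo. In the mushroom body, *DIP-delta* in dopamine neurons and *dpr12* in Kenyon cells are known as partners.

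Each library had its own list of peaks, and the height of a peak was its fold enrichment over the local background. The lists held 69464 and 69940 peaks in dopamine neurons, against 84055, 81638 and 107219 in GABA neurons. The highest fold enrichment was 8.49 and 11.2 in dopamine neurons, against 21.5, 19.9 and 16.0 in GABA neurons, so levels were compared by rank within a list or after quantile normalization. A called peak overlapped 40.5% and 40.4% of all regions in dopamine neurons, against 49.5%, 49.2% and 60.2% in GABA neurons. Markers were read on the mean peak rank, defined below. Of 4 dopamine markers *ple* (difference 38.2, dopamine minus GABA) and *Ddc* (17.2) passed as higher in dopamine neurons. *Vmat* (−23.5) and *DAT* (−6.60) did not pass, and at both every GABA library was above both dopamine libraries. The study, by its own comparison of read counts, reported *DAT* peaks as more open in dopamine neurons. Of 2 GABA markers *Gad1* passed as higher in GABA neurons and *VGAT* did not pass. Of 4 genes of all neurons *Syt1* (difference −22.0) and *brp* (−8.27) were higher in GABA neurons, as most wiring genes were, and *elav* and *nSyb* did not pass, while 10 of the 22 fitted regions of these genes were more open in GABA neurons and 3 in dopamine neurons. Markers of other cells also differed: 2 of 3 epidermal genes measured (*grh* and *knk*) were higher in dopamine neurons, while 2 of 5 photoreceptor genes (*trp* and *norpA*), 1 of 5 glial genes (*alrm*) and 1 of 3 muscle genes (*Mef2*) were higher in GABA neurons. Of the glial genes, *moody* (difference 6.8), *Gs2* (3.5) and *nrv2* (3.5) leaned to dopamine neurons, *repo* (−22.3) to GABA neurons, and none of these passed. Of 18 fitted regions of glial genes, 5 were more open in dopamine neurons and 2 in GABA neurons. In the same order, the counts were 2 and 1 of 5 for photoreceptor genes, 3 and 5 of 10 for muscle genes, and 4 and 0 of 7 for epidermal genes. Over all fitted regions the shares were 24.9% and 27.1%. The mean rank of *grh*, a regulator of epidermal genes, was 63.1 and 61.7 in dopamine neurons, against 16.5, 14.0 and 27.9 in GABA neurons, and *trp*, a photoreceptor channel, was at 0 in both dopamine libraries, against 58.8, 54.0 and 51.5 in GABA neurons. The part of these cells, and of the difference at genes of all neurons, in the results below was not tested.

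Peaks at the wiring genes were sparse in dopamine neurons and frequent in GABA neurons. A peak overlapped 86 (16.9%) and 103 (20.3%) of the 508 regions in the dopamine libraries, against 300 (59.1%), 339 (66.7%) and 384 (75.6%) in the GABA libraries. These shares lay below the all-region shares in both dopamine libraries and above them in all 3 GABA libraries. Peaks in both dopamine lists and absent from every GABA list were found at no wiring region, against 8.42% of all regions. By contrast, 157 wiring regions (30.9%) had a peak in all 3 GABA lists and in no dopamine list, against 13.2% of all regions, and they lay at 34 of the 53 genes. A further 69 (13.6%) had a peak in all 5 lists, against 20.6% of all regions, 203 showed another mix and 79 had no peak in any list.

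The classes separated the families only in degree. Regions with a peak in the GABA lists alone made up 26.4% of Dpr regions, 22.2% of DIP regions, 35.9% of Beat regions and 40.5% of Side regions. GABA library 3 had the longest list, and it was the source of 63 of the 92 wiring regions that had a peak in 1 GABA list and no other. A peak in at least 1 dopamine list but in no GABA list was found at 2 regions. Where ranks were set side by side, every GABA list was above both dopamine lists at 260 wiring regions (51.2%, against 26.9% of all regions). Both dopamine lists were above every GABA list at 1 (against 16.1% of all regions).

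**Figure D1:**
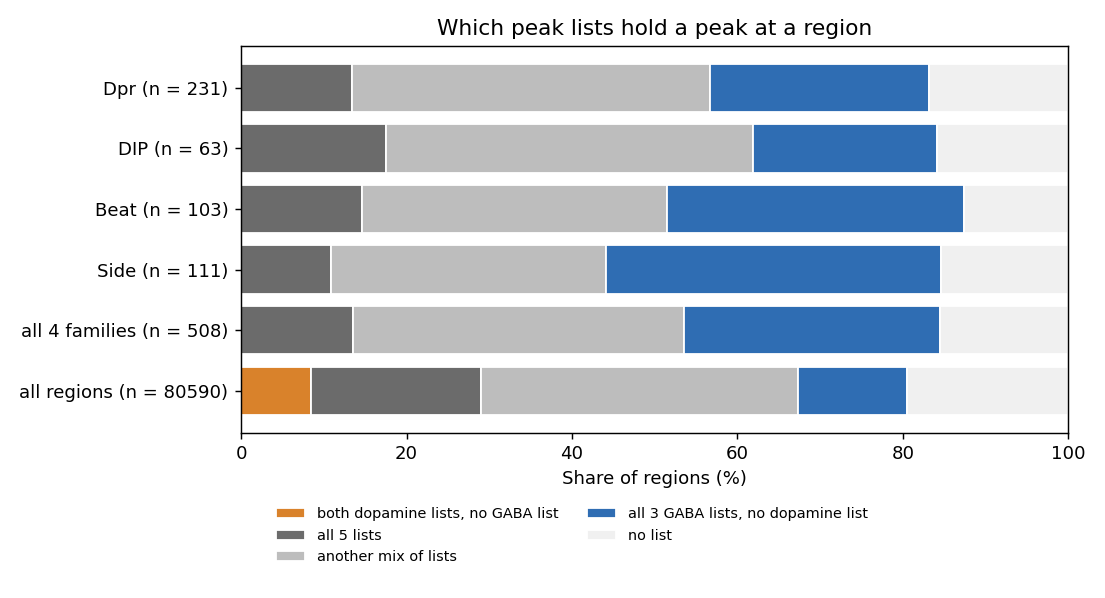
Share of regions, in percent, by which peak lists hold a peak there, for each wiring family, for the 4 families together and for all 80590 regions. The orange class, both dopamine lists without a GABA list, is 8.42% of all regions and has no wiring region, while the blue class, all 3 GABA lists and no dopamine list, is 30.9% of wiring regions against 13.2% of all regions.

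To describe whole genes, each region was given the percentile rank of its highest peak within the library's own list, or 0 without a peak, and the ranks were averaged over the regions of a gene. By this mean peak rank, 39 of the 53 wiring genes (73.6%) were higher in GABA neurons, against 20.1% of all genes, and 0 were higher in dopamine neurons, against 15.5% of all genes (limma, Benjamini-Hochberg adjusted over 14273 genes). At an unadjusted p under 0.05 the counts were 0 higher in dopamine neurons and 47 higher in GABA neurons. The share of all genes at that unadjusted threshold was not counted. The median difference, dopamine minus GABA, was −30.7 percentile points for the wiring genes and −4.98 for all genes. Every GABA library was above both dopamine libraries at 50 genes (94.3%, against 38.8% of all genes), the exceptions being *beat-Ib*, *beat-IIIc* and *DIP-lambda*. Genes with many regions were more often higher in GABA neurons in general, as 51.5% of the 517 genes with 20 or more regions were. The number of calls rested on both dopamine libraries: without dopamine library 1 it was 15 (28.3%, against 6.66% of all genes), and without dopamine library 2 it was 18 (34%, against 8.06% of all genes). Of the 39 genes, 13 passed whichever of the 5 libraries was left out: *dpr3*, *dpr5*, *dpr14*, *dpr19*, *DIP-beta*, *DIP-kappa*, *DIP-zeta*, *beat-IIIa*, *beat-Vb*, *beat-VII*, *side-III*, *side-V* and *side-VII*.

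**Figure D2:**
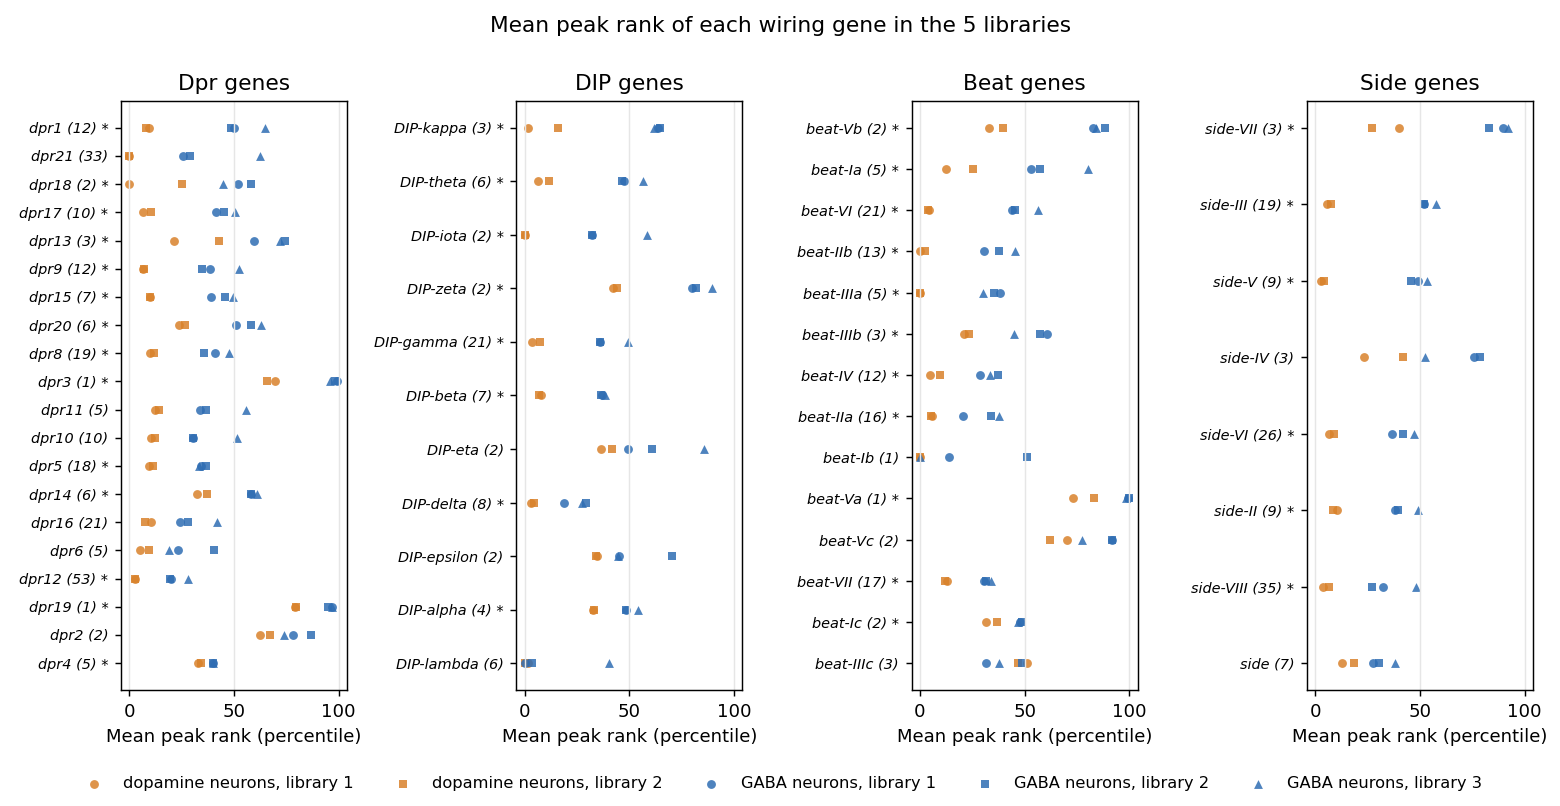
Mean peak rank (percentile within a library's own list, 0 to 100) of each wiring gene in the 2 dopamine libraries (orange) and the 3 GABA libraries (blue), 1 panel per family. The number of regions of each gene is in parentheses, an asterisk marks genes past the adjusted p of 0.05, and in 50 of 53 genes all blue symbols lie right of both orange symbols.

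Among the Dpr genes, 14 of 20 (70%) were higher in GABA neurons, against 20.1% of all genes. All 20 had every GABA library above both dopamine libraries, against 38.8% of all genes. The largest difference past the threshold was at *dpr1*, with mean ranks of 9.23 and 8.17 in dopamine neurons, against 49.9, 48.5 and 64.6 in GABA neurons (difference −45.6 ± 5.96 SE, adjusted p = 0.0109 by limma). *dpr1* is the founding member, named for a defective proboscis extension response to salt in flies. The smallest difference past the threshold was at *dpr4*, at −6.29 (adjusted p = 0.0289). The 6 genes that did not pass were *dpr2*, *dpr6*, *dpr10*, *dpr11*, *dpr16* and *dpr21*.

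*dpr21* and *dpr12* had the most regions of the Dpr genes, and both are described here after their values were seen. *dpr21*, on arm 2R, had no called peak at any of its 33 regions in either dopamine library, against 17, 23 and 33 regions in the GABA libraries. Its mean ranks were 0 and 0 in dopamine neurons, against 25.8, 29.0 and 62.5 in GABA neurons. GABA library 3 stood apart from the other 2, and the difference did not pass (−39.1, adjusted p = 0.101). *dpr12* had 53 regions, of which 14 had peaks in the GABA lists alone, 2 in all lists and 17 in none. It was lower in dopamine neurons, at 2.86 and 2.87, than in GABA neurons, at 20.1, 19.2 and 27.8 (difference −19.5, adjusted p = 0.0186).

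Among the DIP genes, which encode the binding partners of the Dpr proteins, 8 of 11 (72.7%) were higher in GABA neurons, against 20.1% of all genes. *DIP-kappa* had mean ranks of 1.57 and 15.8 in dopamine neurons, against 63.7, 64.5 and 61.8 in GABA neurons (difference −54.7 ± 4.94 SE, adjusted p = 0.00486 by limma). *DIP-theta* had 6.42 and 11.4 in dopamine neurons, against 47.5, 46.4 and 56.6 in GABA neurons (difference −41.2, adjusted p = 0.00621). *DIP-iota* had no peak in the dopamine libraries, against mean ranks of 32.4, 32.3 and 58.5 in the GABA libraries, and passed narrowly (difference −41.0, adjusted p = 0.0471). In all of these genes the GABA libraries lay well above the dopamine libraries, with no overlap. Every GABA library was above both dopamine libraries at 38.8% of all genes. The 3 genes that did not pass were *DIP-epsilon*, *DIP-eta* and *DIP-lambda*. *DIP-lambda*, chosen after its values were seen, had 1.41 and 0 in dopamine neurons, against 0, 3.60 and 40.3 in GABA neurons, so its difference of −13.9 rested on GABA library 3.

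Among the Beat genes, the receptors, 11 of 14 (78.6%) were higher in GABA neurons, against 20.1% of all genes. *beat-Vb* had mean ranks of 32.8 and 39.8 in dopamine neurons, against 82.7, 88.3 and 84.1 in GABA neurons (difference −48.8 ± 3.24 SE, adjusted p = 0.00269 by limma). *beat-Ia*, the receptor of Side on motor axons, had 12.2 and 25.1 in dopamine neurons, against 53.0, 57.3 and 80.3 in GABA neurons (difference −44.9, adjusted p = 0.0439). *beat-VI*, with 21 regions, had 4.41 and 3.98 in dopamine neurons, against 44.2, 45.5 and 56.6 in GABA neurons (difference −44.6, adjusted p = 0.00639), and 13 of its regions had peaks in the GABA lists alone. None of these 3 genes overlapped between the groups, and every GABA library was above both dopamine libraries at 38.8% of all genes. *beat-Ib*, *beat-Vc* and *beat-IIIc* did not pass. *beat-IIIc* was the 1 wiring gene of 53 with a positive difference, with 51.1 and 46.6 in dopamine neurons, against 31.6, 48.7 and 37.6 in GABA neurons (difference 9.60 ± 6.06 SE, adjusted p = 0.299), and its groups overlapped.

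Among the Side genes, the ligands, 6 of 8 (75%) were higher in GABA neurons, against 20.1% of all genes. All 8 had every GABA library above both dopamine libraries, against 38.8% of all genes. *side-VII* had mean ranks of 40.1 and 27.0 in dopamine neurons, against 89.7, 83.1 and 92.0 in GABA neurons (difference −54.7 ± 5.44 SE, adjusted p = 0.00597 by limma). *side-III*, with 19 regions, had 5.84 and 7.69 in dopamine neurons, against 52.2, 51.8 and 57.9 in GABA neurons (difference −47.2, adjusted p = 0.0017), and 12 of its regions had peaks in the GABA lists alone. *side-V* had 2.69 and 4.27 in dopamine neurons, against 48.9, 45.7 and 53.3 in GABA neurons (difference −45.8, adjusted p = 0.00221). *side-IV* and *side* did not pass, with *side* just outside at −16.5 (adjusted p = 0.0509).

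Receptors and ligands were set against each other within each library, as a description with no test. Beat genes averaged 9.73 and 9.53 percentile points above Side genes in the dopamine libraries, against −2.02, 4.79 and −4.19 in the GABA libraries. DIP genes less Dpr genes came to −5.10 and −6.14 points in the dopamine libraries, against −5.10, −3.61 and −0.063 in the GABA libraries. So Beat genes were above Side genes in both dopamine libraries, and the order varied among the GABA libraries. The median number of regions per gene was 4 for Beat genes and 9 for Side genes. The part of region number in these contrasts was not tested.

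Fold enrichment could be compared directly at the 69 wiring regions with a peak in all 5 lists, which lay at 46 genes. Of these, 64 (92.8%) were more open in GABA neurons, against 27.1% of the 16601 regions so fitted, and 0 were more open in dopamine neurons, against 24.9% (limma, adjusted over 16601 regions). At an unadjusted p under 0.05 there were 0 regions in the dopamine direction and 65 in the GABA direction. The share of all fitted regions at that unadjusted threshold was not counted. The median log2 difference was −0.94 at the wiring regions and −0.02 at all fitted regions. The regions past the threshold were 1.33-fold to 3.11-fold higher in GABA neurons. The families were alike: 29 of 31 Dpr regions (median −0.91), 10 of 11 DIP regions (median −1.09), 14 of 15 Beat regions (median −0.98) and 11 of 12 Side regions (median −0.87) were higher in GABA neurons. The 64 regions lay at 45 genes and on every arm tabulated, with 13 of 14 fitted regions on 2L, 6 of 7 on 2R, 6 of 6 on 3L, 31 of 33 on 3R and 8 of 9 on X. Over all fitted regions of an arm, the share more open in GABA neurons ran from 25.07% on 2R to 28.95% on 2L.

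**Figure D3:**
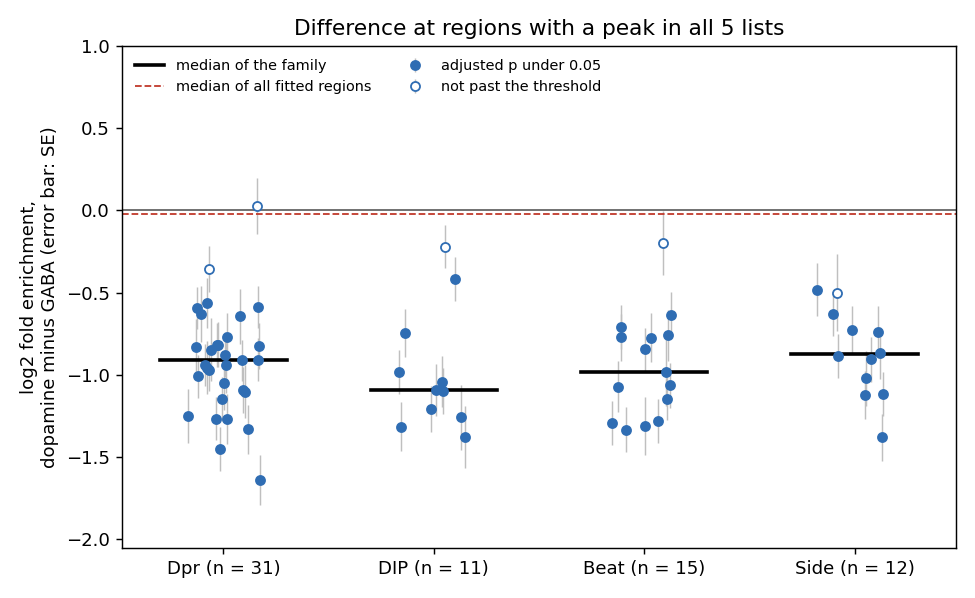
Log2 difference in quantile-normalized fold enrichment, dopamine minus GABA, at each of the 69 wiring regions with a peak in all 5 lists (points, with bars of 1 SE, grouped by family). Filled points passed the adjusted p of 0.05, black lines are family medians between −0.87 and −1.09, the dashed line is the median of all fitted regions, and 68 of 69 points lie below 0.

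The largest difference was at a promoter region of *dpr15*, 349 bp upstream of the start site (3R:12158944-12159229, release 6 coordinates). Its fold enrichment was 2.10 and 2.05 in dopamine neurons, against 7.64, 7.65 and 4.43 in GABA neurons (log2 difference −1.64 ± 0.15 SE, adjusted p = 3.1e-05 by limma, 3.11-fold higher in GABA neurons). The next were the start-site regions of *dpr11* and *side-II*, which belong to binding pairs and are given with them below. All 3 regions were promoters whose groups did not overlap. By percentile rank, every GABA library was above both dopamine libraries at 23.1% of all promoter regions. The *dpr15* region lay beside the start-site region of the same gene (3R:12158529-12158881). The 2 regions had the same fold enrichment and −log10 q in GABA libraries 1 and 2, as when 1 peak overlaps both. The start-site region had 2.63 and 3.87 in dopamine neurons, against 7.64, 7.65 and 6.23 in GABA neurons. Its log2 difference was smaller, at −1.15 (2.21-fold higher in GABA neurons).

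Start sites carried most of these comparisons. For each of the 53 genes the region nearest its start site was taken. Of these, 48 overlapped a start and 51 lay within 500 bp, while the nearest regions of *beat-IIIa* and *DIP-lambda* were intronic, 4001 bp and 140927 bp downstream. The nearest region could be fitted at 46 genes and was more open in GABA neurons at 45, the exception being *side-V*. The median percentile rank of these 53 regions within the list, with 0 where no peak was called, was 65.6 and 73.4 in dopamine neurons, against 97.9, 98.2 and 97.3 in GABA neurons. A peak was called at 46 and 48 of the 53 in dopamine neurons, against 51, 51 and 52 in GABA neurons. For a like comparison, all wiring regions within 500 bp of a start (89) were set beside all such regions of the series. Of the 54 fitted, 52 (96.3%) were more open in GABA neurons and 0 in dopamine neurons, against 20.7% and 27.1% of the 10329 fitted in the whole series. Where a peak was called, the median percentile rank of the wiring regions was 65.6 and 71.7 in dopamine neurons, against 96.7, 96.8 and 95.1 in GABA neurons. Over all regions so near a start it was 71.3 and 73.4 in dopamine neurons, against 73.8, 75.4 and 75.6 in GABA neurons. The wiring starts thus ranked a little below the usual start site in dopamine neurons and far above it in GABA neurons.

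Genes listed as binding partners were followed as 10 pairs of 17 genes. The list came from general knowledge of published binding screens and was not checked against a source here. By mean peak rank, 11 of the 17 genes were higher in GABA neurons, against 39 of the 53 wiring genes and 20.1% of all genes. All 17 had every GABA library above both dopamine libraries, against 50 of the 53 wiring genes and 38.8% of all genes. Both partners passed in 4 pairs: *DIP-delta* with *dpr12*, *beat-IV* with *side-II*, and *beat-Va* and *beat-Vb* each with *side-VI*. By start-site region, 16 of the 17 genes could be fitted and all 16 were more open in GABA neurons. This was so at 45 of the 46 wiring genes fitted, and at 20.7% of all fitted regions within 500 bp of a start.

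*DIP-alpha* and its partners *dpr6* and *dpr10* are known from layer-specific targeting in the optic lobe. The start-site region of *DIP-alpha* (X:3530644-3531191) had fold enrichments of 2.48 and 2.84 in dopamine neurons, against 7.75, 8.39 and 4.61 in GABA neurons (log2 difference −1.32 ± 0.15 SE, adjusted p = 6.2e-05 by limma). At *dpr6* (3L:9974286-9974686) the values were 2.18 and 3.07 in dopamine neurons, against 5.65, 5.54 and 4.64 in GABA neurons (log2 difference −1.09). At *dpr10* (3L:10185899-10186353) they were 3.61 and 3.41 in dopamine neurons, against 8.16, 6.72 and 6.32 in GABA neurons (log2 difference −0.94). In all 3 regions the lowest GABA library was above the highest dopamine library. By percentile rank, every GABA library was above both dopamine libraries at 27.5% of all regions within 500 bp of a start. A second promoter region of *DIP-alpha* (X:3570206-3571418), chosen after its values were seen, did not pass: it had 4.28 and 6.26 in dopamine neurons, against 7.27, 7.35 and 4.95 in GABA neurons (log2 difference −0.22 ± 0.13 SE, adjusted p = 0.186 by limma). Its raw values overlapped, but by percentile rank every GABA library was above, with 87.9 and 92.7 in dopamine neurons, against 96.6, 96.5 and 96.0 in GABA neurons. Whether the 2 *DIP-alpha* promoters differed from each other was not tested.

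*DIP-gamma* and *dpr11* are known as partners of medulla neurons and R7 photoreceptors. The start-site region of *DIP-gamma* (3R:28970278-28970865) had 2.70 and 4.32 in dopamine neurons, against 9.41, 8.84 and 6.59 in GABA neurons (log2 difference −1.21). That of *dpr11* (3R:6592956-6593788) had 2.93 and 4.21 in dopamine neurons, against 13.0, 11.0 and 8.20 in GABA neurons (log2 difference −1.45 ± 0.13 SE, adjusted p = 3.0e-05 by limma, 2.73-fold higher in GABA neurons). Both genes had non-overlapping start-site regions, although *dpr11* did not pass by its mean rank over 5 regions (−28.6, adjusted p = 0.0639). By percentile rank, every GABA library was above at 27.5% of all regions within 500 bp of a start.

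*DIP-delta* and *dpr12*, the pair known from dopamine neurons and Kenyon cells, also ran in the common direction. Kenyon cells were not sorted as a pool here, and the subtypes within the dopamine pool are not given in the sources used here. The mushroom body partnership itself was not tested. The region nearest the *DIP-delta* start, 336 bp downstream of it (3L:5436495-5436951), had 2.18 and 2.73 in dopamine neurons, against 4.97, 4.54 and 4.08 in GABA neurons (log2 difference −0.98). The start-site region of *dpr12* (2R:5803582-5805528) had the highest mean signal of all wiring regions, with fold enrichments of 4.51 and 5.69 in dopamine neurons, against 13.2, 13.1 and 9.66 in GABA neurons (log2 difference −0.97). Its −log10 q, which was not scaled between the lists, was 19.3 and 20.9 in dopamine neurons, against 367, 370 and 226 in GABA neurons. By mean rank *DIP-delta* had 3.02 and 4.38 in dopamine neurons, against 18.8, 29.3 and 27.4 in GABA neurons (difference −21.5, adjusted p = 0.0226 by limma).

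Both genes of the founding Beat and Side pair were more open at the start site in GABA neurons. The *beat-Ia* start-site region (2L:16049768-16050035) had 2.93 and 4.44 in dopamine neurons, against 11.0, 11.3 and 7.51 in GABA neurons (log2 difference −1.33 ± 0.13 SE, adjusted p = 4.2e-05 by limma). That of *side* (3R:27437196-27437839) had 4.43 and 6.71 in dopamine neurons, against 15.2, 12.1 and 7.46 in GABA neurons (log2 difference −0.74 ± 0.16 SE, adjusted p = 0.0027 by limma). The difference between the 2 genes was not tested.

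In the other Beat and Side pairs every fitted start-site region was also more open in GABA neurons. *side-II* (2L:14972124-14972532) had 3.68 and 4.67 in dopamine neurons, against 16.1, 14.0 and 8.60 in GABA neurons (log2 difference −1.38, 2.60-fold higher in GABA neurons). At *beat-IV*, listed with it (3R:23557215-23557863), the values were 2.33 and 5.01 in dopamine neurons, against 7.36, 8.13 and 4.87 in GABA neurons (log2 difference −0.98), and dopamine library 2 reached above GABA library 3 before normalization. *side-IV* (3R:13450200-13450783) had 3.23 and 4.67 in dopamine neurons, against 11.3, 10.5 and 6.23 in GABA neurons (log2 difference −1.12). Its partner *beat-IIb* (3R:17264914-17265178) had no peak in dopamine library 1 and 2.62 in dopamine library 2, against 5.19, 8.97 and 3.07 in GABA neurons, and was not fitted. The *beat-V* genes differed by −1.07 at *beat-Va* (3R:12848392-12848798), −0.76 at *beat-Vb* (3R:12915684-12916193) and −1.31 at *beat-Vc* (3R:12783155-12783641), and their partner *side-VI* by −0.63 (3R:10972039-10972908), all on the log2 scale.

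**Figure D4:**
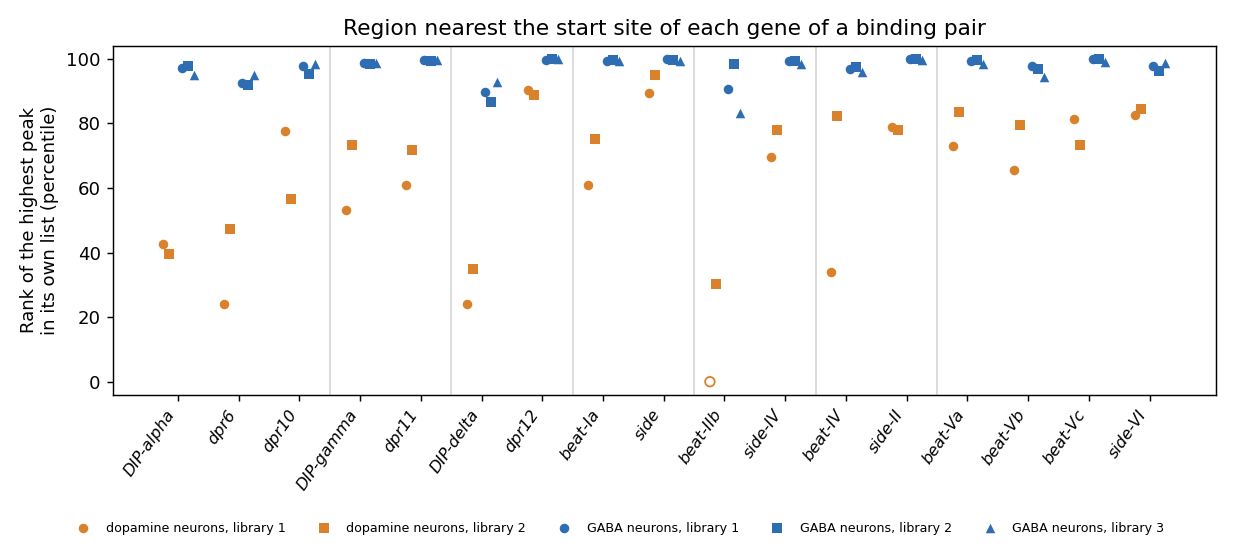
Percentile rank, within each library's own list, of the highest peak at the region nearest the start site of the 17 genes in binding pairs, with vertical lines between partner groups. All blue symbols (3 GABA libraries) lie above both orange symbols (2 dopamine libraries) at every gene, as was found at 27.5% of all regions within 500 bp of a start. The open symbol at 0 marks *beat-IIb*, without a peak in dopamine library 1.

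Away from start sites, the wiring genes held many regions seen in the GABA lists alone. Introns held 269 wiring regions (53.0%, against 19.8% of all regions), promoters 161 (31.7%, against 56.1%) and distal intergenic sequence 47 (9.25%, against 7.12%). Peaks in the GABA lists alone were found at 101 intron regions (37.5%, against 22% of all intron regions), 33 promoter regions (20.5%, against 7.53%) and 17 distal regions (36.2%, against 25.3%). Among fitted regions, 57 of 61 promoters (93.4%, against 22.1% of all fitted promoters), 6 of 6 introns (against 45.8%) and 1 of 1 distal region (against 58.8%) were more open in GABA neurons. None was more open in dopamine neurons, against 26.5% of fitted promoters, 20.4% of fitted introns and 15.8% of fitted distal regions in the whole series. The share of wiring regions was above that of all regions in each kind of place.

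The 3 regions of this class with the highest mean signal were intronic. An intron region of *dpr21* (2R:3182671-3183813) had fold enrichments of 3.29, 3.01 and 3.15 in GABA neurons and no peak in dopamine neurons. At *DIP-beta* (X:21450199-21450699) they were 4.63, 4.96 and 3.07 in GABA neurons, and at *dpr8* (X:14342902-14343401) 4.18, 2.64 and 3.34 in GABA neurons, with no peak in either dopamine library. No fold is given, since a missing peak says that the region was under the calling threshold and not that it was closed.

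Few wiring regions ran the other way, and those named here were chosen after their values were seen. A distal region upstream of *beat-IIIc* (2L:17268224-17268385) had 4.28 and 4.89 in dopamine neurons, against no peak in GABA libraries 1 and 2 and 1.76 in GABA library 3, and was the 1 region ranked higher in every dopamine list. The start-site region of the same gene (2L:17260624-17260988) was more open in GABA neurons (log2 difference −0.85). A promoter region of *dpr2* (2L:10964751-10964845) was the 1 fitted region with a positive difference (0.03 ± 0.17 SE, adjusted p = 0.904 by limma). The 3 other fitted regions that did not pass, beside the second *DIP-alpha* promoter, belonged to *side-V* (−0.50, adjusted p = 0.0942), *dpr16* (−0.35, adjusted p = 0.0543) and *beat-Vc* (−0.20, adjusted p = 0.415).

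Other immunoglobulin superfamily genes of neurons and epithelia were listed for comparison, and 17 of the 18 listed had regions. Of these, 10 (58.8%) had a higher mean peak rank in GABA neurons, against 20.1% of all genes. In dopamine neurons 1 (5.88%) was higher, against 15.5% of all genes, and 6 did not pass. These 17 genes had a median of 18 regions, against 6 for the wiring genes. Of all genes with 20 or more regions, 51.5% were higher in GABA neurons and 8.9% in dopamine neurons, which is close to the shares of this list. *Dscam3*, of the Dscam family of self-recognition receptors, had the largest difference past the threshold, at −39.9, followed by *hbs* at −35.7. *Fas3*, an adhesion protein of septate junctions and some axons, was higher in dopamine neurons, at 21.5. Among their fitted regions 18 of 43 (41.9%) were more open in GABA neurons and 4 of 43 (9.30%) in dopamine neurons, and 64 regions (23.9%) had peaks in the GABA lists alone. These shares lay between those of the wiring genes and those of all regions for the GABA direction, and the difference between the 2 lists of genes was not tested.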

How the data were processed

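ATAC-seq was measured in 2 dopamine and 3 GABA libraries. The authors trimmed adapters with CutAdapt, aligned reads with Bowtie2 to release 6 of the *Drosophila* genome, dropped duplicate reads (Picard) and used MACS2 to find peaks library by library, featureCounts to count reads and DESeq2 to compare the groups; the MACS2 settings and the way regions were built are not given in the sources used here. Deposited peak lists give a ratio (fold enrichment over background), −log10 of p and q, and a score for each summit, and the deposited table of regions gives the authors' mean normalized signal over all libraries, the nearest gene and the place. Its columns of log2 fold change, standard error, statistic and p-value hold the authors' own comparison and were not used. No other column of per-sample values was left over (0). The peak lists hold no read counts, so no counting interval is given. The study tabulates reads per library, which were not used here. Both dopamine libraries had more reads, and larger shares of duplicates, than GABA libraries 1 and 2, and shorter peak lists. Within the GABA libraries, library 3 had the most reads and the longest list. The study also gives a lower alignment rate for the dopamine libraries, a difference that was not significant there. The part of depth in the peak numbers was not tested.

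For each region the highest peak overlapping by at least 1 bp was taken (pandas 2.3.3). limma 3.58.1 in R 4.3.3 was fitted to quantile-normalized log2 fold enrichment at the 16601 regions with a peak in all 5 lists, and to mean percentile ranks of all 14273 genes with a trend on the number of regions, with Benjamini-Hochberg adjustment and a threshold of 0.05, two-sided. Both fits were tested on simulated data. An exact permutation test of 2 against 3 libraries cannot go below p = 0.2, so overlap classes are descriptions. Members and gene lists were chosen with earlier results of these data known. Named with values were start-site regions of binding-pair genes, the 3 largest differences and 3 highest signals per class in each direction, and at most 10 genes past the threshold. Of 53 symbols, 53 matched RefSeq, and 563 regions without a symbol entered region fits only. Alternatives varied scaling, ranking, peak strength and overlap, mean signal, number of peaks, regions per gene, the threshold, a replicate block and each library left out.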

Additional observations from a re-analysis of the deposited data

How the results depend on the processing

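No alternative gave a wiring region or gene more open in dopamine neurons by limma: the count was 0 in every fit of regions and of genes. Where a peak had to cover at least 50% of the region, 25.7% of all fitted regions were more open in GABA neurons. Of wiring regions more open in GABA neurons, 64 as reported, 38 of 42 fitted were called where a peak had to cover at least 50% of the region, and 62 to 68 were called with a library left out, where more regions could be fitted without a dopamine library: 68 of 96 (70.8%, against 17.9% of all regions) without dopamine library 1 and 65 of 80 (81.2%, against 18.6%) without dopamine library 2. Of wiring genes higher in GABA neurons, 39 as reported, 19 passed an adjusted p of 0.01 and 15 to 40 passed with a library left out. With the replicate number as a block 12 passed, as did 575 of all 14273 genes. The numbers come from the sample titles alone and did not pair the libraries: deviations of same-numbered libraries correlated at −0.032 and 0.045 across regions, and −0.058 and 0.088 across genes. Regions with a peak in both dopamine lists alone numbered 0 as reported, against 8.42% of all regions. They numbered 1 with peaks of −log10 q of at least 5 (against 6.15% of all regions), 1 with 50% cover (against 10.8%) and 1 with equal numbers of peaks (against 9.65%). With a library left out they numbered 0 to 2, against 8.9% to 10.5% of all regions. Among the 193 wiring regions with mean signal of at least the median, 72 (37.3%, against 15% of all such regions) were in the GABA lists alone. As reported, these numbered 157 (30.9%, against 13.2%). Regions in all lists numbered 42 with 50% cover (8.27%, against 8.68% of all regions) and 69 as reported (13.6%, against 20.6%). The lower share of wiring regions in all lists thus nearly went away with 50% cover. Both settings admit fewer regions or peaks. The near-zero difference at the *dpr2* region (0.03) turned to −0.19 with peaks of −log10 q of at least 5, to −0.10 with the replicate block, and lay between −0.15 and 0.17 with a library left out, and that at the *beat-Vc* region (−0.20) turned to 0.0084 by −log10 q; the cause was not tested. Over single genes and settings, 482 values kept direction and call, 121 lost the call and 20 gained it, and over single named regions 257 kept both, 9 gained the call and 5 turned sign. Requiring the summit of a peak inside the region, chosen after seeing the data, gave 65 regions and 38 genes. Peak calls without read counts and only 2 dopamine libraries limit all of these counts.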
